A study of Mus musculus with 6 samples.

Results

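The genes described here are 40 genes of DNA replication and mitosis, taken by symbol from a list and found, all 40, among the 54556 genes of an RNA sequencing table of mouse pancreatic islets. They fall into 15 replication genes and 25 mitosis genes. The table held 3 libraries labelled beta-Mettl3-KO, from mice with genotype Mettl3 flox/flox RIP-Cre, and 3 libraries from Mettl3 flox/flox mice without Cre. All mice were C57BL/6, 8 weeks old and on normal chow, and both groups carried the floxed alleles. RIP-Cre is Cre recombinase under a rat insulin promoter. A group with the transgene and intact Mettl3 is not among the 6 libraries, so the transgene and the loss of Mettl3 cannot be told apart. Nothing in the labels ties a library to 1 animal or to a pool, and the p-values below therefore measure only how these libraries scatter, which may be technical.

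A dividing cell first copies its DNA and then separates the copies. In the first step a ring-shaped helicase made of MCM proteins is loaded on DNA by CDC6 and CDT1 and travels with the polymerases, the sliding clamp PCNA and a supply of deoxynucleotides, and its genes are typically driven by E2F transcription factors. In the second step cyclin B with CDK1, the Aurora and Polo kinases, kinetochore proteins and spindle motors condense and pull apart the chromosomes, and their genes are typically driven through CCAAT boxes and a short element called the CHR (cell cycle genes homology region), which is bound by the MuvB complex with B-MYB and FOXM1. Most β cells of an adult mouse are out of the cell cycle.

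The promoters of the 2 lists differed in these elements. RefSeq promoter windows (GRCm38.p6), running from 250 bases before to 50 bases after the annotated start, were found for 34 of the 40 genes, in 36 windows. Both strands were searched for CCAAT, for TTTGAA as the CHR, and for TTTCCCGC, TTTCGCGC, TTTGCCGC or TTTGGCGC as an E2F site. The CHR was in 17 of 22 mitosis windows and in 1 of 14 replication windows, against 17.9% of all 32851 windows. An E2F site was in 1 of 22 mitosis windows (Cdk1) and in 6 of 14 replication windows, against 2.26% of all windows. CCAAT was in 19 of 22 mitosis windows and in 9 of 14 replication windows, against 37.4% of all windows. Prc1 and Mcm7 had 2 windows each, and those of Prc1 overlap and hold the same sites. Counted by gene, 16 of 21 mitosis genes had a CHR, 18 a CCAAT box and 1 an E2F site. Of 13 replication genes, 1 had a CHR, 8 a CCAAT box and 6 an E2F site. A CCAAT box and a CHR stood together in 72.7% of mitosis windows, 7.14% of replication windows and 6.95% of all windows. Matches of different motifs overlapped in 1 place in the 36 windows, and a match is a description of letters, not of a bound site.

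**Figure D1:**
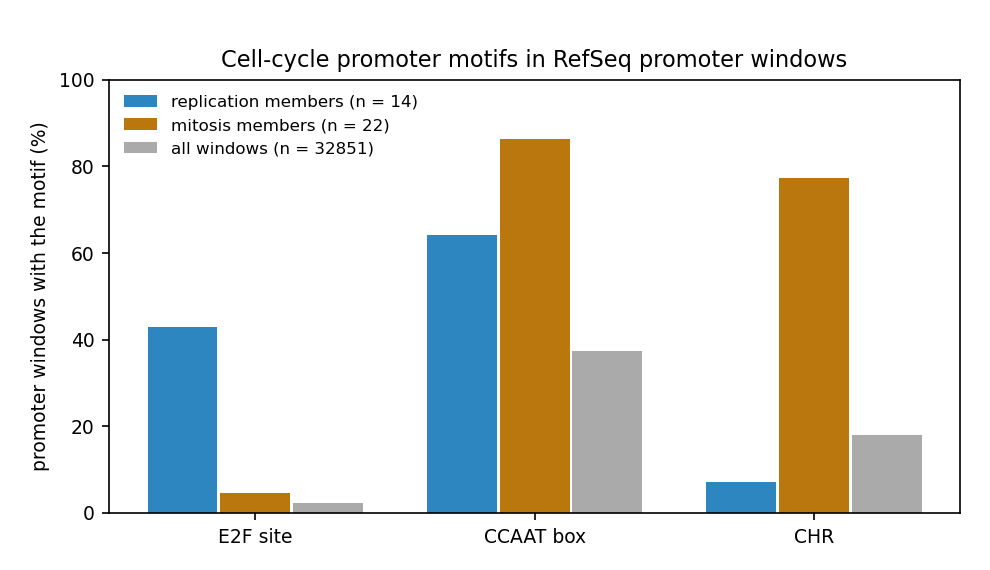
Share of promoter windows (percent, vertical axis) that hold at least 1 E2F site, CCAAT box or CHR, for the 14 replication windows, the 22 mitosis windows and all 32851 windows. The E2F bar is tallest for replication windows (42.9%), and the CHR bar for mitosis windows (77.3%).

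Stretches of 6 promoters are shown because they carry the 2 arrangements, from 170 bases before to 30 bases after the start, 5′ to 3′ on the gene's strand, with the matched motifs in capitals. The first 4 belong to mitosis genes, Ccnb2 (chr9:70421525-70421724, minus strand), Cdc20 (chr4:118437314-118437513, minus strand), Top2a (chr11:99024160-99024359, minus strand) and Mki67 (chr7:135716350-135716549, minus strand), and hold CCAAT in either orientation and the CHR. The last 2 belong to replication genes, Mcm5 (chr8:75109339-75109538, plus strand) and Mcm6 (chr1:128359676-128359875, minus strand), and hold E2F sites with CCAAT boxes and no CHR. The last bases of the window were found in an annotated transcript of the gene for the first 4 promoters, but not for Mcm5 and Mcm6. The start is therefore less certain for those 2.
Ccnb2: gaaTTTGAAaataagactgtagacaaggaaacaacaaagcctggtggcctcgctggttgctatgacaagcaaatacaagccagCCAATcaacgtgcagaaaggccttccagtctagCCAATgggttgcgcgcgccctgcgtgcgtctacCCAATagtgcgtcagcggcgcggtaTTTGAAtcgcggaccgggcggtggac
Cdc20: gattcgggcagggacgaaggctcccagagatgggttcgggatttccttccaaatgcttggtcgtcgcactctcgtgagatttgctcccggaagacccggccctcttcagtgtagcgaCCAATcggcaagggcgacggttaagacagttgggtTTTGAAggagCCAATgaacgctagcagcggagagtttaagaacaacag
Top2a: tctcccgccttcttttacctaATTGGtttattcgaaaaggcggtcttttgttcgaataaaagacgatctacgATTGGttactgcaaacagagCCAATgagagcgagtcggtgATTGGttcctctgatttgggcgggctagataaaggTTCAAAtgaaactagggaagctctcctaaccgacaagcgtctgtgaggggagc
Mki67: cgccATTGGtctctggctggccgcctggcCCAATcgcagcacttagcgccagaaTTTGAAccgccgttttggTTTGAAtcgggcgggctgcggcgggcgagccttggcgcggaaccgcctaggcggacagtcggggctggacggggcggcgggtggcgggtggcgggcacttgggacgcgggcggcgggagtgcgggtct
Mcm5: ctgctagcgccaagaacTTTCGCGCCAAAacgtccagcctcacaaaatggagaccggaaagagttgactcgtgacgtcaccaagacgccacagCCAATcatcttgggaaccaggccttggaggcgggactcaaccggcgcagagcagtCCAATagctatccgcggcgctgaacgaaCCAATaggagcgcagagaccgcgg
Mcm6: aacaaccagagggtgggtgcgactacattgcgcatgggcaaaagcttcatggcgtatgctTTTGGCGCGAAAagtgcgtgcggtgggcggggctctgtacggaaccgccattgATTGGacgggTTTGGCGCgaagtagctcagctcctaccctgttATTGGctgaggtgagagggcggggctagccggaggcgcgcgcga

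Members with and without these letters can be set beside their calls. Of mitosis genes tested, 10 of 15 with a CHR and 4 of 5 without one rose, and of replication genes 3 of 6 with an E2F site and 3 of 7 without one rose, against 13.9% of all tested genes called higher (limma, described below). In Mcm5 and Mcm6 a pair of E2F matches overlap each other and form 1 run of capitals. In Ccnb2, CCAAT boxes began 87, 54 and 21 bases before the start, and in Cdc20 they began 53 and 8 bases before it.

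Values are FPKM, fragments per kilobase of gene, which can be compared between genes. Libraries held 16719393 to 18387313 recovered reads in the libraries labelled knockout and 16398862 to 17691055 in the flox/flox libraries. Mettl3 itself was not lower. It had 4.06, 4.20 and 4.15 FPKM in the libraries labelled knockout, against 3.42, 2.89 and 3.93 FPKM in the flox/flox libraries (log2 difference 0.25 ± 0.11 SE, limma adjusted p = 0.151). A sum over the whole gene does not show the loss of some exons, so this does not check the genotype, and the group is called here the libraries labelled knockout. β-cell markers (7 genes) were all present and all lower, at 98897 to 106557 summed FPKM in the libraries labelled knockout and 239237 to 300303 in the flox/flox libraries. The deposited values were already scaled so that the typical gene does not differ, and in whole islets fewer cells of a type and less RNA per cell cannot be told apart.

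Of the 39 genes tested, 24 rose in the libraries labelled knockout, 0 fell and 15 did not pass, and the median difference was larger for the mitosis genes. Of the 40 genes, 39 passed the filter on low values, a mean of 0.25 FPKM over the 6 libraries, and Kif11 did not. Ttk passed only with the help of its higher group, since its flox/flox mean was 0.225 FPKM. Of 15 replication genes 7 rose, 0 fell and 8 did not pass the test (limma on log2(FPKM + 0.5), adjusted p under 0.05 over 19796 genes), against 13.9% of all tested genes called higher, 12.3% called lower and 26.1% called in either direction. Of the 24 mitosis genes tested 17 rose, 0 fell and 7 did not pass. Median log2 differences were 0.50 for the replication genes, 0.81 for the mitosis genes and 0.01 for all tested genes. The log2 scale adds 0.5 FPKM to each value and so understates the change of these scarce transcripts. As a plain ratio of group means the median was 1.501 for replication genes and 2.54 for mitosis genes. The groups did not overlap, with every library labelled knockout higher, for 9 of 15 replication genes and 20 of 24 tested mitosis genes, against 23.6% of all tested genes. Leaving out Ttk made the mitosis count 19 of 23. Kif11, which was not tested, did not overlap either. No gene of either list was lower without overlap, against 21.2% of all tested genes. The log2 difference was positive for 14 of 15 replication genes and 24 of 24 mitosis genes, against 51.0% of all tested genes.

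**Figure D2:**
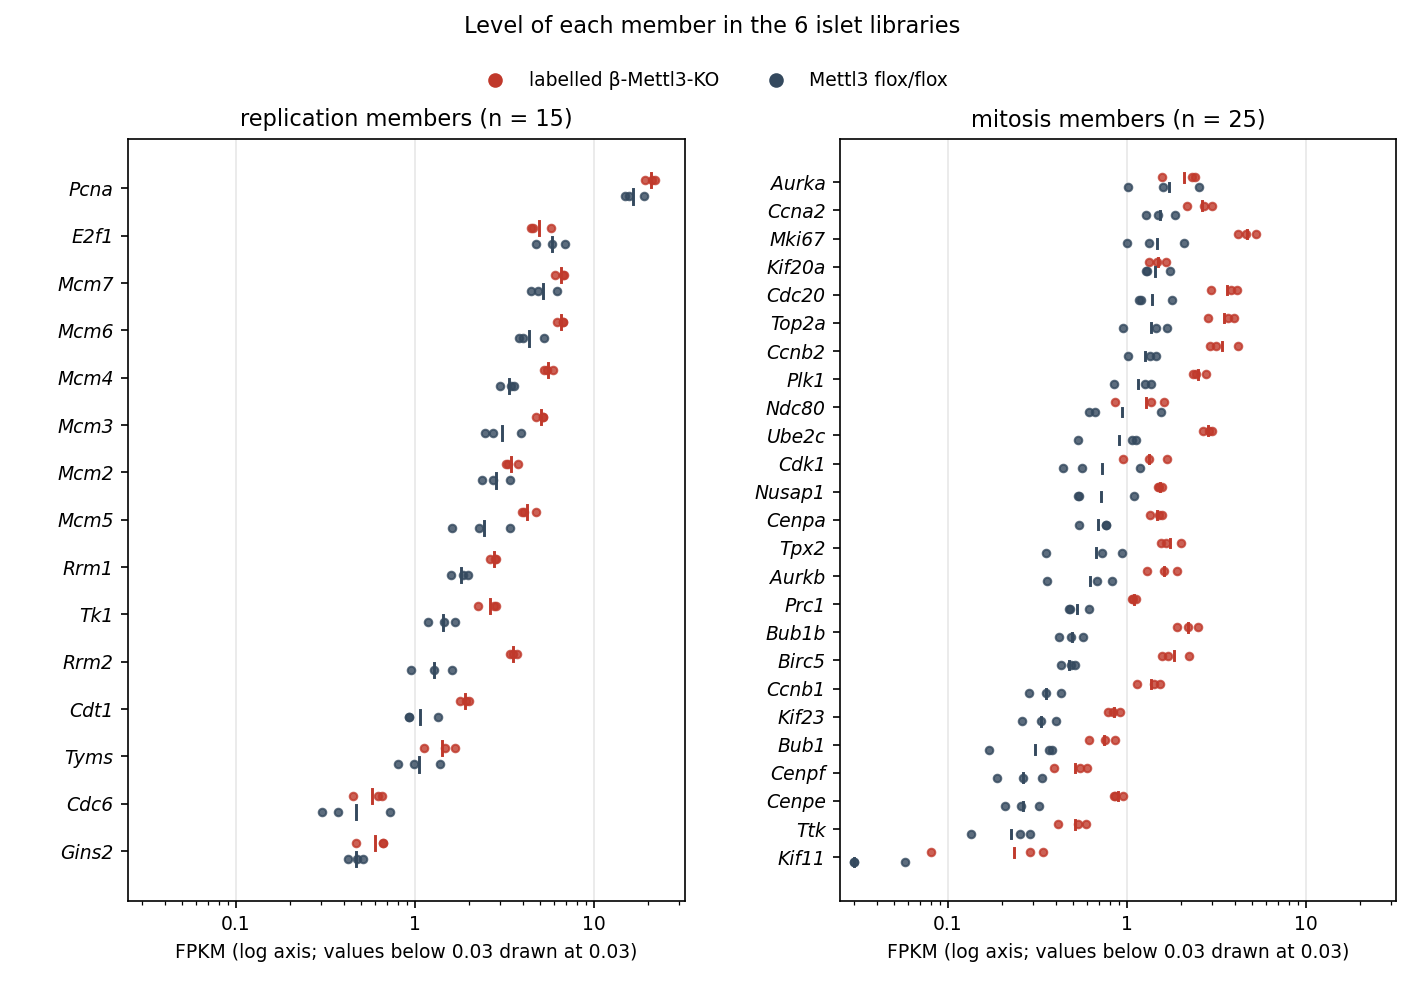
FPKM of each gene (horizontal log axis) in the 3 libraries labelled knockout (red, upper dots of each row) and the 3 flox/flox libraries (dark, lower dots), with short vertical lines at group means, for 15 replication genes (left) and 25 mitosis genes (right). Red dots lie to the right of the dark dots without overlap for 9 replication and 21 mitosis genes, and E2f1 has its red mean to the left of its dark mean.

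These counts depended on single libraries. Without replicates 1, 2 or 3 of the libraries labelled knockout, 3, 2 and 2 replication genes and 12, 12 and 10 mitosis genes rose, against 12.4%, 10.8% and 7.03% of all tested genes. Without flox/flox replicates 1, 2 or 3, 4, 10 and 2 replication genes and 13, 16 and 12 mitosis genes rose, against 9.69%, 10.8% and 8.96% of all tested genes. A count of 2 or 3 of 15 replication genes is near these shares. Calls held in each of these 6 fits for Mcm4 and Rrm2 among replication genes, and for Bub1b, Mki67, Ube2c, Birc5, Ccnb2, Cdc20, Ccnb1, Top2a, Plk1 and Cenpe among mitosis genes. In a fit of replicate 1 of the libraries labelled knockout alone against the flox/flox group, 0 replication genes and 2 mitosis genes were called higher, against 4.05% of all tested genes called higher and 5.74% called in either direction. The medians were then 0.52 and 0.80, and the lone library is assumed to vary like the others.

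Among the licensing genes, which load the replicative helicase, 4 of 8 rose. This count and those of the other roles below stand beside 13.9% of all tested genes called higher, and each role holds few genes. Mcm4, a helicase subunit, had 5.92, 5.46 and 5.27 FPKM in the libraries labelled knockout, against 2.98, 3.57 and 3.43 FPKM in the flox/flox libraries. It rose by 0.66 ± 0.09 on the log2 scale (SE, limma adjusted p = 0.00442), the smallest SE of the 6 MCM genes. Mcm3 had 5.19, 5.21 and 4.74 FPKM against 2.47, 3.93 and 2.73 FPKM in the flox/flox libraries (0.67 ± 0.16, adjusted p = 0.0247), and Mcm6 had 6.69, 6.67 and 6.19 FPKM against 3.81, 5.24 and 3.98 FPKM (0.55 ± 0.12, adjusted p = 0.0208). In each of these genes every library labelled knockout lay above every flox/flox library. Cdt1, which brings the helicase to origins, rose as well, with 1.92, 2.00 and 1.78 FPKM in the libraries labelled knockout against 0.926, 1.34 and 0.922 FPKM in the flox/flox libraries (0.63 ± 0.15, adjusted p = 0.0232). The calls of Mcm3, Mcm6 and Cdt1 were each lost without any 1 of the libraries except flox/flox replicate 2, with adjusted p up to 0.0895, 0.0772 and 0.0769.

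The other licensing genes did not pass. Mcm5 was close to the threshold, at 4.72, 4.05 and 3.95 FPKM in the libraries labelled knockout and 2.27, 3.40 and 1.60 FPKM in the flox/flox libraries, groups that did not overlap (0.74 ± 0.22, adjusted p = 0.0527). Its ratio of means, 1.75, was above that of Mcm4, 1.67, and its flox/flox libraries were the more spread. Mcm7 and Mcm2 had ratios of 1.26 and 1.22 and groups that overlapped (adjusted p = 0.121 and 0.212). Mcm7 had 6.78, 6.72 and 6.02 FPKM in the libraries labelled knockout, against 4.45, 6.24 and 4.84 FPKM in the flox/flox libraries. Mcm2 had 3.30, 3.24 and 3.77 FPKM in the libraries labelled knockout, against 2.38, 3.37 and 2.72 FPKM in the flox/flox libraries. Flox/flox replicate 2 reached into the other group in both. Cdc6, the other loading factor, had 0.449, 0.655 and 0.618 FPKM in the libraries labelled knockout and 0.303, 0.728 and 0.374 FPKM in the flox/flox libraries, so that flox/flox replicate 2 was the highest of the 6 (adjusted p = 0.621). Subunits of 1 helicase therefore had ratios between 1.22 and 1.75, and 3 of the 6 MCM genes passed.

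Nucleotide supply held the largest change of the replication list. Rrm2, the cell-cycle-regulated subunit of ribonucleotide reductase (chr12:24708241-24714146, plus strand, GRCm38), had 3.53, 3.73 and 3.38 FPKM in the libraries labelled knockout, against 0.954, 1.27 and 1.60 FPKM in the flox/flox libraries, a ratio of 2.78. Its log2 difference was 1.20 ± 0.15 (SE, limma adjusted p = 0.00281), resting on 194 to 204 reads per library labelled knockout and 40 to 66 reads per flox/flox library. Rrm1, the large subunit of the same enzyme, rose by less, with 2.82, 2.80 and 2.62 FPKM in the libraries labelled knockout against 1.59, 1.97 and 1.85 FPKM (ratio 1.52, adjusted p = 0.0174). Tk1, the thymidine kinase of the salvage route, had a ratio of 1.82 (adjusted p = 0.0159), and Tyms, thymidylate synthase, one of 1.34 with overlapping groups (adjusted p = 0.279). Tk1 had 2.25, 2.82 and 2.76 FPKM in the libraries labelled knockout, against 1.45, 1.68 and 1.18 FPKM in the flox/flox libraries. Tyms had 1.13, 1.66 and 1.47 FPKM in the libraries labelled knockout, against 0.988, 1.38 and 0.807 FPKM in the flox/flox libraries. The groups of Tk1 were apart, while Tyms in flox/flox replicate 2 lay above the lowest library labelled knockout. The Rrm1 call was lost without any library labelled knockout or without flox/flox replicate 3 (adjusted p up to 0.0621), and the Tk1 call without replicate 2 or 3 of the libraries labelled knockout or flox/flox replicate 3 (up to 0.0747).

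Pcna, the sliding clamp, which also serves DNA repair, was the most abundant of the 40 genes. It had 21.2, 21.9 and 19.4 FPKM in the libraries labelled knockout, against 14.9, 19.1 and 15.7 FPKM in the flox/flox libraries. The groups did not overlap but lay close, and the difference did not pass (0.33 ± 0.10 on the log2 scale, limma adjusted p = 0.064). Without flox/flox replicate 2 it was 0.43 and passed (adjusted p = 0.0197). Gins2, a subunit of the GINS part of the replicative helicase, was at 0.596 and 0.467 mean FPKM (adjusted p = 0.486), and 67.3% of its exon bases also lie in exons of Gse1 on the other strand. Gins2 had 0.468, 0.662 and 0.659 FPKM in the libraries labelled knockout, against 0.419, 0.473 and 0.510 FPKM in the flox/flox libraries. With strand not stated, reads of those 2 genes cannot be told apart.

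E2f1, the transcription factor that drives replication genes, was the 1 gene of the 39 with a negative log2 difference. It had 5.75, 4.43 and 4.56 FPKM in the libraries labelled knockout, against 5.83, 6.89 and 4.74 FPKM in the flox/flox libraries (-0.22 ± 0.15 SE, limma adjusted p = 0.352). The groups overlapped, and the sign turned, to 0.15, when libraries were scaled by their own read totals (adjusted p = 0.436). At 5.82 FPKM it was, in the flox/flox group, the second most abundant of the 40 genes after Pcna.

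The 2 chromosome genes of the mitosis list rose. Mki67, which coats mitotic chromosomes and is the standard marker of proliferation (chr7:135689784-135716361, minus strand, GRCm38), had 4.19, 4.60 and 5.26 FPKM in the libraries labelled knockout, against 0.999, 2.09 and 1.33 FPKM in the flox/flox libraries, a ratio of 3.18 (log2 difference 1.43 ± 0.21 SE, limma adjusted p = 0.00486). Top2a, the topoisomerase that untangles sister chromatids, had 2.82, 3.98 and 3.65 FPKM against 0.946, 1.67 and 1.46 FPKM in the flox/flox libraries, a ratio of 2.56 (1.11 ± 0.19, adjusted p = 0.00886). The lowest library labelled knockout stood above the highest flox/flox library in both.

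Of the cyclin and CDK genes, the B and A cyclins rose and their kinase did not pass. Cyclins are the regulatory partners that switch on CDKs. Ccnb1 had 1.14, 1.41 and 1.52 FPKM in the libraries labelled knockout, against 0.282, 0.427 and 0.351 FPKM in the flox/flox libraries, a ratio of 3.83 on 100 to 133 reads against 18 to 26 reads per library (limma adjusted p = 0.00458). Ccnb2, whose promoter is shown above, had 2.91, 4.18 and 3.15 FPKM against 1.34, 1.45 and 1.01 FPKM, a ratio of 2.70 (adjusted p = 0.00458). Ccna2, which acts in both replication and mitosis, had a ratio of 1.70 (adjusted p = 0.0317), a call lost without any library except flox/flox replicate 2 (adjusted p up to 0.0988), and 12.5% of its exon bases overlap Exosc9. Ccna2 had 2.69, 2.98 and 2.17 FPKM in the libraries labelled knockout, against 1.49, 1.85 and 1.27 FPKM in the flox/flox libraries. Its groups did not overlap. Cdk1, the partner of cyclin B, had 0.953, 1.33 and 1.68 FPKM in the libraries labelled knockout and 0.563, 1.18 and 0.437 FPKM in the flox/flox libraries. Flox/flox replicate 2 lay within the other group there, and the difference was 0.60 ± 0.27 (adjusted p = 0.152). A pseudogene, Ccnb2-ps, had 954 reads over the 6 libraries, so reads of Ccnb2 may be shared with it.

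Mitotic kinases divided evenly, with 3 of 6 rising. Bub1b, which encodes the checkpoint protein BUBR1 (chr2:118598211-118641591, plus strand, GRCm38), had 2.48, 1.90 and 2.19 FPKM in the libraries labelled knockout, against 0.417, 0.567 and 0.488 FPKM in the flox/flox libraries. Its ratio of 4.46 and its log2 difference of 1.44 ± 0.14 (SE, limma adjusted p = 0.00125) were the largest of the 39 tested genes. Plk1, the Polo kinase of mitotic entry, had 2.42, 2.74 and 2.35 FPKM against 0.842, 1.35 and 1.26 FPKM in the flox/flox libraries (adjusted p = 0.00949). Aurkb, the Aurora kinase of the chromosomal passenger complex, had 1.61, 1.89 and 1.29 FPKM against 0.359, 0.681 and 0.823 FPKM (ratio 2.57, adjusted p = 0.0223). Aurkb no longer passed once any 1 of the libraries labelled knockout, or flox/flox replicate 2, was left out (adjusted p up to 0.0721). Its relative Aurka, the Aurora kinase of centrosomes, did not pass, with 2.39, 2.30 and 1.56 FPKM in the libraries labelled knockout and 1.59, 2.52 and 1.01 FPKM in the flox/flox libraries, where flox/flox replicate 2 was the highest of all 6 (adjusted p = 0.514). Bub1 and Ttk, 2 further checkpoint kinases, had groups that did not overlap and ratios of 2.43 and 2.26, on 11 to 24 and 10 to 21 reads per flox/flox library, and did not pass (adjusted p = 0.056 and 0.12). Bub1 had 0.617, 0.857 and 0.753 FPKM in the libraries labelled knockout, against 0.364, 0.382 and 0.170 FPKM in the flox/flox libraries. Ttk had 0.410, 0.530 and 0.588 FPKM in the libraries labelled knockout, against 0.134, 0.253 and 0.288 FPKM in the flox/flox libraries. Both passed in limma-voom on recovered reads, which adds no 0.5 FPKM (adjusted p = 0.0244 and 0.0411), a fit that called 14.7% of all tested genes higher and 28.2% in either direction.

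Both genes of the anaphase-promoting complex, the ubiquitin ligase that ends mitosis, rose. Cdc20, its activator, had 2.95, 3.81 and 4.13 FPKM in the libraries labelled knockout, against 1.17, 1.78 and 1.19 FPKM in the flox/flox libraries (log2 difference 1.14 ± 0.18 SE, limma adjusted p = 0.00563). Ube2c, its ubiquitin-conjugating enzyme, had 2.66, 2.97 and 2.86 FPKM against 0.534, 1.12 and 1.06 FPKM, a ratio of 3.13 (adjusted p = 0.00537). The 3 libraries labelled knockout were close together for Ube2c. Its exons share 22.8% of their bases with Tnnc2 on the other strand.

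At the centromere and kinetochore, where spindle fibres attach, 3 of 5 genes rose. Birc5, the survivin subunit of the chromosomal passenger complex, had 1.69, 2.22 and 1.57 FPKM in the libraries labelled knockout, against 0.486, 0.427 and 0.515 FPKM in the flox/flox libraries, a ratio of 3.85 (limma adjusted p = 0.00266). Birc5 was the 1 gene of the 40 with flox/flox replicate 2 as the lowest of its group. Cenpe, a kinetochore motor, had 0.857, 0.955 and 0.850 FPKM against 0.207, 0.257 and 0.320 FPKM (ratio 3.39, adjusted p = 0.0109). Cenpa, the histone of centromeres, had a ratio of 2.14 (adjusted p = 0.0136), a call lost without replicate 3 of the libraries labelled knockout (adjusted p = 0.0641). Cenpa had 1.51, 1.34 and 1.57 FPKM in the libraries labelled knockout, against 0.541, 0.768 and 0.759 FPKM in the flox/flox libraries. Cenpf, a large kinetochore protein, had groups that did not overlap and a ratio of 1.95 (adjusted p = 0.169), and passed in limma-voom (adjusted p = 0.0258). Cenpf had 0.392, 0.596 and 0.544 FPKM in the libraries labelled knockout, against 0.188, 0.336 and 0.262 FPKM in the flox/flox libraries. In both genes the lowest library labelled knockout lay above the highest flox/flox library. Ndc80, of the complex that grips microtubules, had 1.61, 0.860 and 1.36 FPKM in the libraries labelled knockout and 0.661, 1.54 and 0.612 FPKM in the flox/flox libraries, so the groups overlapped (adjusted p = 0.436).

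Of the 6 spindle and cytokinesis genes, 5 were tested and 4 rose. Tpx2, a spindle assembly factor that activates Aurora A, had 1.65, 1.99 and 1.56 FPKM in the libraries labelled knockout, against 0.353, 0.932 and 0.720 FPKM in the flox/flox libraries (ratio 2.59, limma adjusted p = 0.0214). Kif23, a motor of the central spindle, had a ratio of 2.54 (adjusted p = 0.0234), its partner Prc1 one of 2.08 (adjusted p = 0.0201) and Nusap1, a microtubule binder, one of 2.11 (adjusted p = 0.036). Kif23 had 0.832, 0.913 and 0.787 FPKM in the libraries labelled knockout, against 0.259, 0.403 and 0.332 FPKM in the flox/flox libraries. Prc1 had 1.06, 1.08 and 1.13 FPKM in the libraries labelled knockout, against 0.482, 0.614 and 0.475 FPKM in the flox/flox libraries. Nusap1 had 1.501, 1.49 and 1.57 FPKM in the libraries labelled knockout, against 0.537, 1.09 and 0.531 FPKM in the flox/flox libraries. None of the groups overlapped in these genes. The calls of these 4 were each lost in 3 to 5 of the 6 fits that left out a library, with adjusted p up to 0.0721 for Tpx2, 0.0667 for Kif23, 0.0766 for Prc1 and 0.119 for Nusap1; the fit without flox/flox replicate 2 kept them. Kif20a, another motor of the central spindle, had 1.66, 1.47 and 1.32 FPKM in the libraries labelled knockout and 1.29, 1.73 and 1.28 FPKM in the flox/flox libraries, a ratio of 1.03 (log2 difference 0.04 ± 0.15, adjusted p = 0.866). Its exons share 29.2% of their bases with Cdc23 on the other strand. Kif11, the motor that separates spindle poles, was below the filter, with 34, 27 and 8 reads in the libraries labelled knockout and 0, 4 and 0 reads in the flox/flox libraries, a level of at most 0.338 FPKM.

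**Figure D3:**
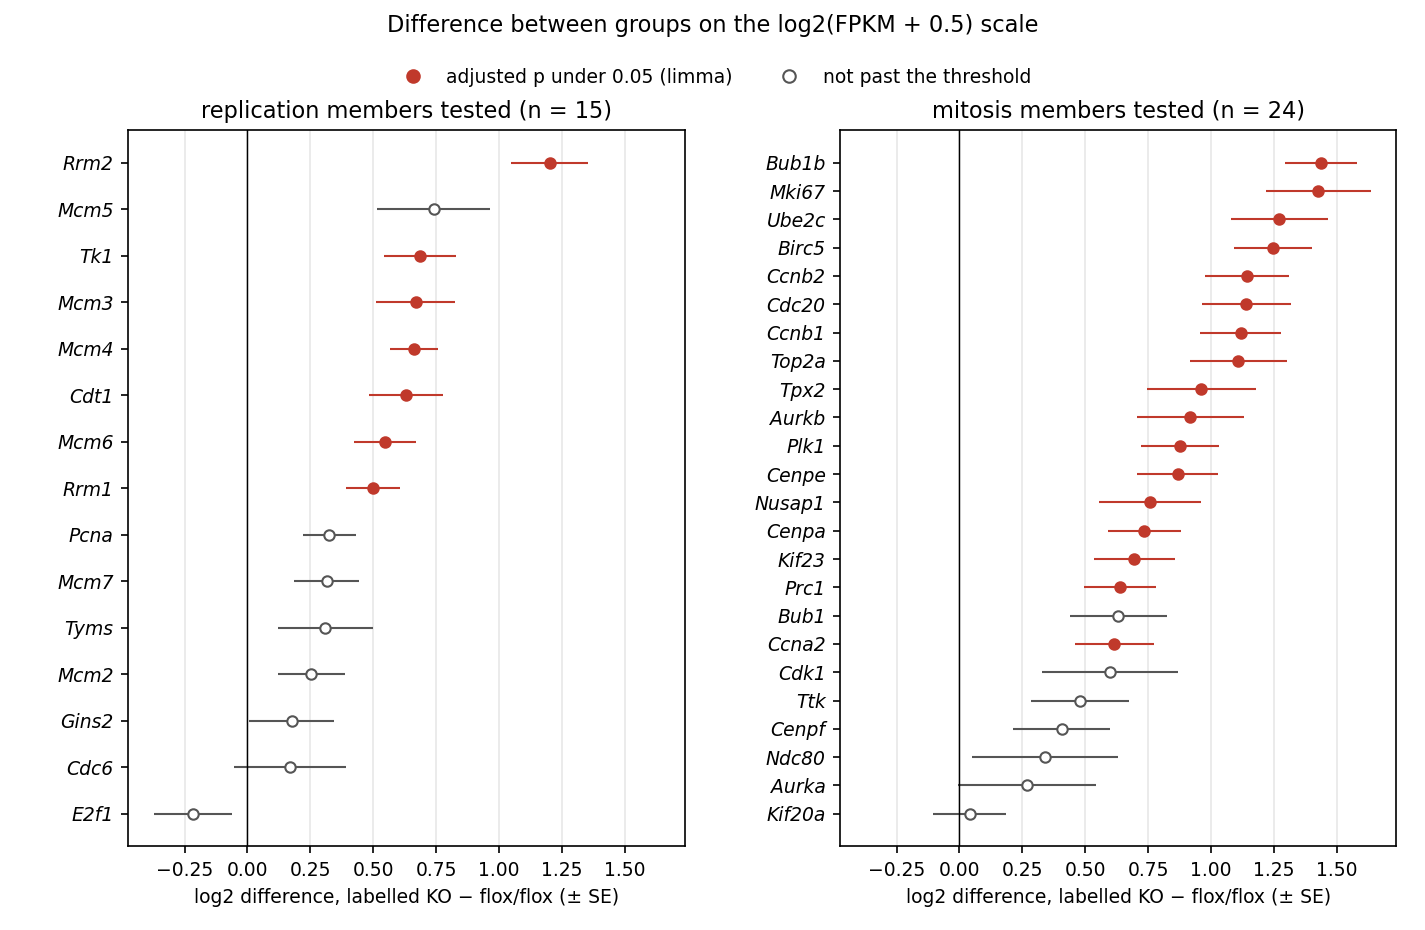
Log2 difference (libraries labelled knockout minus flox/flox, on the log2(FPKM + 0.5) scale, ± SE) of 15 replication genes (left) and 24 mitosis genes (right), with filled red points for limma adjusted p under 0.05. Rrm2 leads the replication genes at 1.20 and Bub1b the mitosis genes at 1.44, and E2f1 lies below 0.

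The summed level gives the same contrast between the lists. Replication genes came to 72.1, 72.0 and 67.2 summed FPKM in the libraries labelled knockout, against 45.7, 60.6 and 47.0 in the flox/flox libraries, a ratio of means of 1.38. That sum leans on Pcna, at 20.8 of 70.4 mean FPKM in the libraries labelled knockout and 16.6 of 51.1 in the flox/flox libraries. E2f1 added 4.91 and 5.82 FPKM, and neither gene passed the test. Mitosis genes came to 43.3, 48.7 and 45.5 summed FPKM against 16.0, 25.5 and 17.9, a ratio of 2.31. The mitosis sum per unit of replication sum was 0.601 to 0.677 in the libraries labelled knockout and 0.351 to 0.420 in the flox/flox libraries, and the groups did not overlap. The 40 genes together took 10102 to 10239 reads per library labelled knockout and 3753 to 5108 per flox/flox library.

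Within the flox/flox group, replicate 2 stood apart for these genes. It was the highest of the 3 for 34 of the 40 genes, 13 of 15 replication and 21 of 25 mitosis genes, while it was the highest for 7126 (35.997%) of all tested genes. In that library acinar markers (6 genes, enzymes of the exocrine pancreas) came to 992.9 summed FPKM, against 326.5 and 525.1 in flox/flox replicates 1 and 3, and duct markers (5 genes) to 133 against 69.9 and 86.1. Its B-cell, plasma-cell and T-cell markers were the lowest of the group. The part of these cells in the levels of replicate 2 was not tested. Without that library the median log2 differences were 0.55 for the replication genes and 0.91 for the mitosis genes.

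Markers of other cell types moved with the group. B-cell markers came to 74.9 to 116 summed FPKM in the libraries labelled knockout and 3.19 to 6.42 in the flox/flox libraries, with 7 of 7 higher without overlap. Germinal-centre markers, of a dividing kind of B cell, came to 6.36 to 13.7 and 0.231 to 0.654 summed FPKM, with 5 of 5 higher and Rgs13 at 0 in all flox/flox libraries. Plasma-cell markers came to 304 to 601.8 and 8.40 to 13.99, with 4 of 5 higher, Prdm1 lower and Tnfrsf17 at 0 in all flox/flox libraries. T-cell markers came to 18.2 to 27.2 and 1.03 to 2.10, with 6 of 6 higher. Enterocyte markers, of the intestinal lining, came to 67.4, 475.5 and 242.8 in replicates 1 to 3 of the libraries labelled knockout and to 27.4 to 30.3 in the flox/flox libraries, with 6 of 7 higher and Alpi at 0 in all flox/flox libraries. No marker of these lists was at 0 in all libraries labelled knockout. The part of these cells in the levels of replication and mitosis genes was not tested.

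Stromal markers were higher too, at 21.8 to 22.8 summed FPKM in the libraries labelled knockout and 13.6 to 19.4 in the flox/flox libraries, with 5 of 6 higher and 1 lower without overlap. Intestinal crypt markers, which include the stem cell gene Lgr5, came to 23.4 to 34.0 summed FPKM in the libraries labelled knockout and 51.1 to 52.0 in the flox/flox libraries. Of these 5 genes, 2 were higher and 1 lower without overlap, so the lower sum does not hold for each gene. Macrophage markers overlapped, at 115 to 152 and 101 to 121 summed FPKM (1 of 6 higher, 1 lower), as did erythroid markers, at 17.8 to 39.6 and 35.2 to 47.0 (1 of 5 higher), and duct markers, at 119 to 127 and 69.9 to 133 (0 of 5). Endothelial markers were lower, at 280.7 to 319 and 557.9 to 571.6 (6 of 6), and acinar markers too, at 138 to 267 and 326.5 to 992.9 (6 of 6). None of these markers was at 0 throughout a group, and the part of these cells in the result was not tested.

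Within the libraries labelled knockout, the order of the 40 genes and of the markers can be set side by side. The summed level of the 40 genes was 115.5, 120.6 and 112.6 FPKM in replicates 1 to 3, while the enterocyte sum was lowest in replicate 1 and highest in replicate 2, and the B-cell sum was highest in replicate 1, at 116, and lowest in replicate 2, at 74.9. The mitosis sum alone, at 43.3, 48.7 and 45.5 FPKM, was lowest in replicate 1 and highest in replicate 2. Enterocyte, plasma-cell, T-cell and intestinal crypt sums had the same order. Germinal-centre, macrophage, erythroid, acinar and β-cell sums had the opposite order, like the B-cell sum. Germinal-centre sums were 13.7, 6.36 and 9.87 FPKM in replicates 1 to 3. Endothelial, duct and stromal sums had neither order. Plasma-cell sums were 304, 601.8 and 411 FPKM and T-cell sums 18.2, 27.2 and 22.4 FPKM in replicates 1 to 3. Crypt sums were 23.4, 34.0 and 29.2 FPKM, all below the flox/flox libraries. In the flox/flox group, replicate 2 had the highest mitosis sum, at 25.5 FPKM, and the lowest enterocyte, plasma-cell, T-cell and crypt sums. These orders rest on few libraries and were not tested. Replicates 1, 2 and 3 were the highest of the group for 11, 20 and 9 of the 40 genes, against 37.7%, 38.4% and 23.9% of all tested genes.

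**Figure D4:**
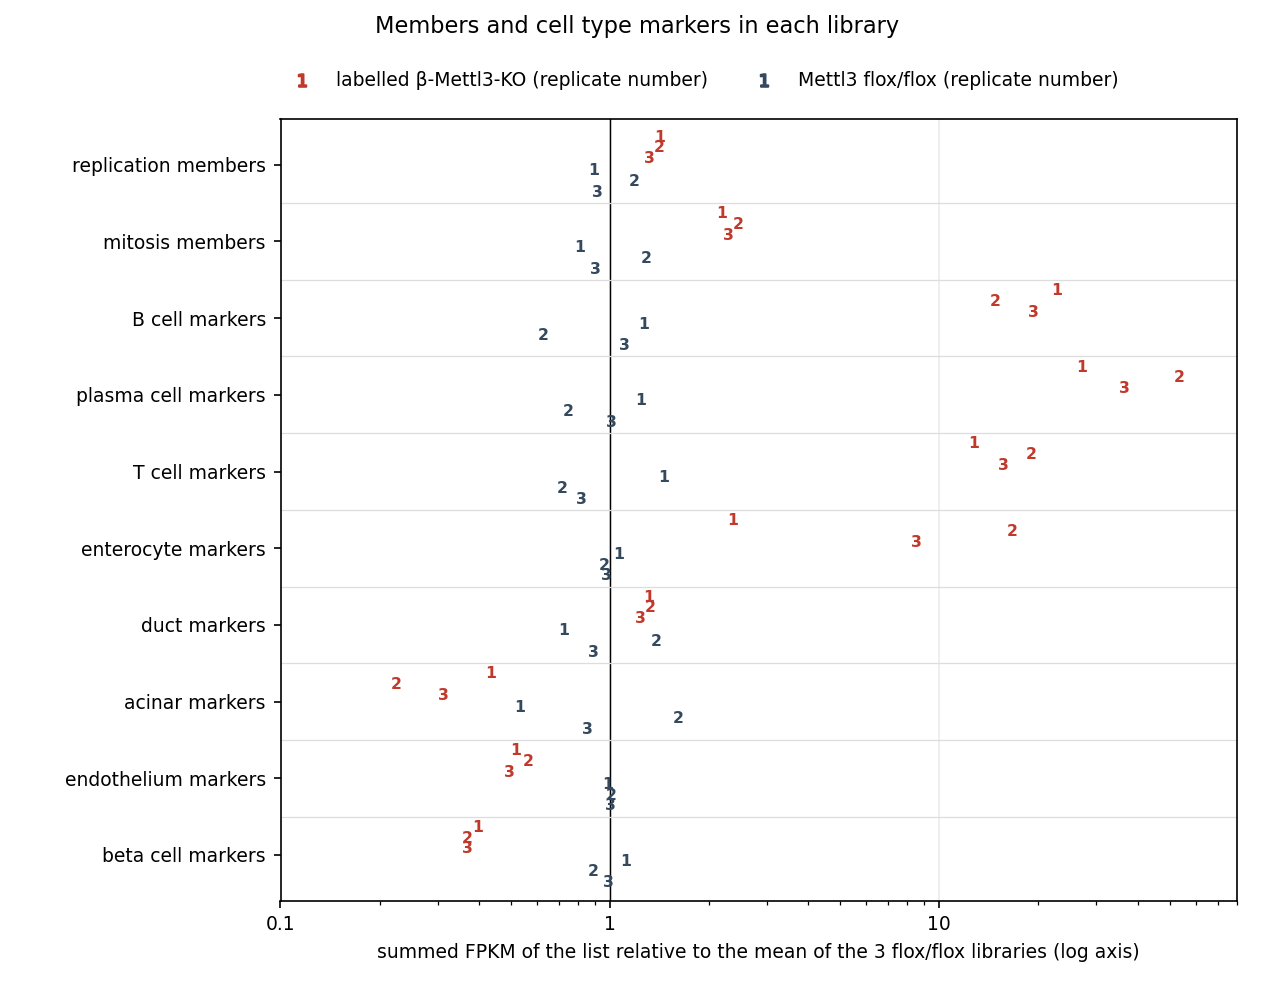
Summed FPKM of each list relative to the mean of the 3 flox/flox libraries (horizontal log axis), with each library drawn as its replicate number, red for libraries labelled knockout and dark for flox/flox. The red numbers of replication and mitosis genes lie close together, while those of enterocyte markers spread from 67.4 to 475.5 summed FPKM, and dark 2 stands to the right in the replication, mitosis, duct and acinar rows.

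Other genes of the same processes were counted in the same fit. In a further list of 40 replication genes, 10 rose, 2 fell and 28 did not pass, against 13.9% of all tested genes called higher and 12.3% called lower, and the median log2 difference was 0.25. Uhrf1, which couples DNA methylation to replication, had 2.65, 2.91 and 2.50 FPKM in the libraries labelled knockout, against 0.714, 1.15 and 0.617 FPKM in the flox/flox libraries (1.28 ± 0.17 SE, limma adjusted p = 0.00365). E2f2, a relative of E2f1, had 3.83, 3.83 and 3.31 FPKM against 1.15, 1.36 and 1.48 FPKM (1.19 ± 0.12, adjusted p = 0.00121). Chaf1a, a chromatin assembly factor, rose by 0.92 and Hells, a chromatin remodeller, by 0.74 (adjusted p = 0.0371 and 0.0275). The 2 that fell, named after their values were seen, were Orc6, a subunit of the origin recognition complex, at -0.51, and Timeless, a fork protection factor, at -0.42 (adjusted p = 0.00959 and 0.0485).

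In a further list of 50 mitosis genes 48 were tested, of which 12 rose, 2 fell and 34 did not pass, against the same 13.9% called higher and 12.3% called lower, with a median of 0.37. Cks2, a small CDK-binding subunit, had 7.21, 7.09 and 5.78 FPKM in the libraries labelled knockout, against 0.860, 1.70 and 1.27 FPKM in the flox/flox libraries, a ratio of 5.25 (log2 difference 2.04 ± 0.19 SE, limma adjusted p = 0.00102), larger than that of any of the 39 tested members. Ncaph, a condensin subunit, rose by 1.06, Ccnf, cyclin F, by 1.05 and Kif2c, a motor that shortens microtubules, by 1.00 (adjusted p = 0.00991, 0.0102 and 0.011). Kif2c and Ncapg, which was also called higher, differed by 2.62 and 2.05 in limma-voom, against 1.00 and 0.77 here. Gaps of that size come with very low flox/flox levels. Both genes may therefore have passed the filter only with the help of their higher group, and both are counted among the 12 that rose. The 2 that fell, named after their values were seen, were Spc25, a partner of NDC80, and Pttg1, securin. Spc25 had 33.3, 31.9 and 30.6 FPKM in the libraries labelled knockout against 52.9, 48.8 and 51.8 FPKM in the flox/flox libraries (adjusted p = 0.000934), a level above that of each of the 40 members, and Pttg1 had a ratio of 0.742 (adjusted p = 0.00991).

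The counts moved with the scaling. When libraries were scaled by their own read totals, the median of all tested genes moved to 0.34, and 8205 genes were higher and 759 lower, against 2745 and 2430 with the deposited scaling. On that scale 12 replication and 20 mitosis genes were higher, with medians of 0.83 and 1.05, against 41.4% of all tested genes called higher, 3.83% called lower and 45.3% called in either direction. Of the further lists, 24 replication genes rose and 0 fell, and 28 mitosis genes rose and 1 fell.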

How the data were processed

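RNA sequencing of islets was measured in 6 libraries, 3 labelled beta-Mettl3-KO and 3 labelled Mettl3 flox/flox, grouped by the sample titles. The build GRCm38 (patch 6) and the tools DESeq2 1.16.1, featureCounts 1.5.0-p3 and HISAT2 2.0.5 are named in the submitters' processing notes, without role or setting, and strandedness is likewise not given. The authors deposited FPKM values for 54556 genes, and 0 per-sample columns were left unused. FPKM times gene length fell on whole multiples of a step, the median of the 300 lowest values, in 100% of values within 0.1, which gave reads per gene and library. The deposited FPKM already had median-of-ratios factors of 1, so repeating that scaling changed nothing.

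The test was limma 3.58.1 in R 4.3.3 (trended eBayes, two-sided), applied to genes with a mean of at least 0.25 FPKM on log2(FPKM + 0.5), with Benjamini-Hochberg adjustment over 19796 genes and a threshold of 0.05. The filter was set low because many of the genes are scarce. Errors of fold changes are standard errors of the model, and levels rest on reads whose counting error is largest for the scarcest genes.

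The members and gene lists were chosen with earlier results of these data known. All 40 members are named, with, of each further list, the 4 called genes of largest absolute difference. Promoter windows come from RefSeq (GRCm38.p6). Limma-voom on recovered reads was added after the data were seen. No 2 libraries of a group were copies of each other: their reads gave a chi-square of 7.00 to 32.6 per degree of freedom.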

Additional observations from a re-analysis of the deposited data

How the results depend on the processing

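With the replicate number as a block, 7 replication and 14 mitosis genes were called, and 4525 of all genes. Same-numbered libraries had correlations of deviations of 0.0465, 0.0394 and 0.0103, so the numbers were not taken to pair them, although each library correlated best with its own number. Leaving out 1 library gave 2 to 10 replication genes, 10 to 16 mitosis genes, 5 to 13 further replication genes, 8 to 14 further mitosis genes and 2584 to 4434 of all genes. With replicate 1 of the libraries labelled knockout alone, the counts were 0, 2, 0, 2 and 1136. With own read totals they were 12, 20, 24, 29 and 8964, against 7, 17, 12, 14 and 5175. A filter at a mean of 5 FPKM called 2 of 4 replication genes, 4 of 9 further replication genes and 4 of 6 further mitosis genes, against 3090 of all 7557 genes. No mitosis member was left to test there. A filter at 1 FPKM called 8 of 23 further mitosis genes, 6 higher and 2 lower, against 4935 of all 14497 genes. Testing all genes above 0 called 6 of 40 further replication genes, against 4271 of all 32456 genes. Quantile normalization also called 6 of 40, against 5217 of all 19796 genes. The counts of further genes at 1 FPKM, above 0 and with quantile normalization were near or below the shares of all genes. The sign turned for Cdc6 with replicate 1 alone (-0.0032), for E2f1 with own totals (0.15) and for Kif20a with quantile normalization (-0.091). Kif20a ran from -0.021 to 0.149 when 1 library was left out. None of these passed the test, and the causes were not tested. Limma-voom on recovered reads, chosen after seeing the data, called 9 replication and 20 mitosis genes higher, against 14.7% of all genes. The planned edgeR and DESeq2 fits on recovered reads were not run, and limma-voom was run instead. Depth limits the scarcest genes, such as Kif11.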
